A study of Homo sapiens with 6 samples.

Results

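The 44 genes described here carry glucose through the cell. They cover its uptake, glycolysis and lactate export, the pentose phosphate branch, the hexosamine and polyol side branches, glycogen and UDP-glucose, and the glucose-sensing arrestins *TXNIP* and *ARRDC4*. They were taken by gene symbol from a table of read counts for 12499 genes, all 44 had a row, and 43 of the 44 were among the 12462 genes that passed the expression filter, the exception being *LDHB*. The counts came from RNA-seq of poly(A) mRNA of HaCaT cells, an immortalized line of human keratinocytes. The cells had been infected for 48 hours with LV-NC, a control lentivirus, or with LV-*ATF7*, a lentivirus made to overexpress the coding sequence of human *ATF7* from the pLVX-IRES-Puro vector. Both groups were then kept for 24 hours in high-glucose (HG) medium with 25 mM glucose. There were 3 libraries per label and none from normal glucose, so the comparison is between viruses under HG and holds no response to glucose itself. The labels name 1 cell line, and nothing in them says whether the replicates were separate cultures, so the p-values measure the spread between these libraries.

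As background, glucose enters keratinocytes through GLUT transporters and is trapped as glucose-6-phosphate by hexokinase. From there it can run down glycolysis to pyruvate and lactate, feed the pentose phosphate pathway for NADPH and ribose, or be stored as glycogen. Fructose-6-phosphate leaves for the hexosamine pathway, which makes UDP-GlcNAc for glycoproteins, hyaluronan and O-GlcNAc. When glucose is in excess, aldose reductase and sorbitol dehydrogenase convert it to sorbitol and fructose, the polyol pathway long studied in diabetic tissue.

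Facts about the whole series bear on how the values are read. Total counts per library were between 16686472 and 20562768. *ATF7* itself (ENSG00000170653, chr12:53507856-53626410, minus strand) went against the labels, at 50.6, 46.4 and 52.2 CPM (TMM-scaled read counts relative to library size) under the LV-NC label, replicates 1 to 3, and 21.9, 25.7 and 28 CPM under the LV-*ATF7* label (log2 fold change -0.98, SE 0.12, adjusted p = 0.000189). Of its exon bases 18.2% are shared with another gene on the same strand and 27.1% with one on the opposite strand. Every direction below is therefore given by label only. The library labeled LV-NC replicate 1 stood apart, with a Pearson r across genes of 0.967 and 0.969 to the other libraries labeled LV-NC, against 0.993 to 0.995 between the other replicates, so results that rest on it are given with and without it. The keratinocyte markers were present at summed levels of 1933 to 2672 CPM under LV-NC and 7051 to 7615 CPM under LV-*ATF7* (10 of 10 with a row, 6 higher and 1 lower). Within that list *KRT5* rose, and *KRT14*, a defining gene of basal keratinocytes, lay between 0.375 and 12.5 CPM over the 6 libraries. Its groups overlapped, at 0.375, 12.5 and 11.3 CPM and 1.45, 1.38 and 1.82 CPM, and its call as lower (adjusted p = 0.0461) held in 6 of 13 alternatives, with an adjusted p of 2.23e-13 without LV-NC replicate 1 and 0.0899 under the replicate block. Markers of endothelial cells (2 of 4 with a row) summed to 1.12 to 5.50 CPM and 84.6 to 89.9 CPM, nearly all of it *CDH5*. Those of fibroblasts (2 of 6) summed to 33.1 to 42.7 and 17.3 to 21.7 CPM, of macrophages (2 of 6) to 3.93 to 4.93 and 7.54 to 10.3 CPM, and of melanocytes (1 of 4) to 1.87 to 2.20 and 3.42 to 6.03 CPM. Genes within a sum went opposite ways. Of the macrophage markers *CD14* rose (log2 fold change 2.33, adjusted p = 2.84e-05) and *CSF1R* fell (-2.18, adjusted p = 0.00039). Of the fibroblast markers *COL1A1* fell (-1.13, adjusted p = 0.000175), while *DCN* leaned higher without passing (2.24, adjusted p = 0.0682). The part of these marker shifts in the results below was not tested, and in bulk RNA fewer cells of a kind and less RNA per cell cannot be told apart.

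In this comparison 28 of the 43 tested genes of glucose use passed the test, 17 higher and 11 lower in the libraries labeled LV-*ATF7*. That is 65.1% of the genes tested, beside 67.6% of all genes tested (34.7% higher and 32.9% lower), a share near that of genes in general. Their median log2 fold change was -0.01, beside 0.00 over all genes. Directions differed between branches and between isoenzymes of the same step. A fold of at least 1.5 was reached by 23 of the called genes, where 52.9% of all genes tested were called at that size. A fold of at least 2 was reached by 16, 10 higher and 6 lower, beside 32.8% of all genes tested. The 2 groups of 3 libraries did not overlap for 29 of the 43 genes, against 72.7% of all genes tested, and *ALDOC* was the 1 called gene of 28 whose groups did overlap. Of the 28, 24 were called under all 14 alternative settings, and all 28 kept their direction in every one. The exceptions in call were *ALDOC*, *PGD*, *TALDO1* and *UGP2*.

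**Figure D1:**
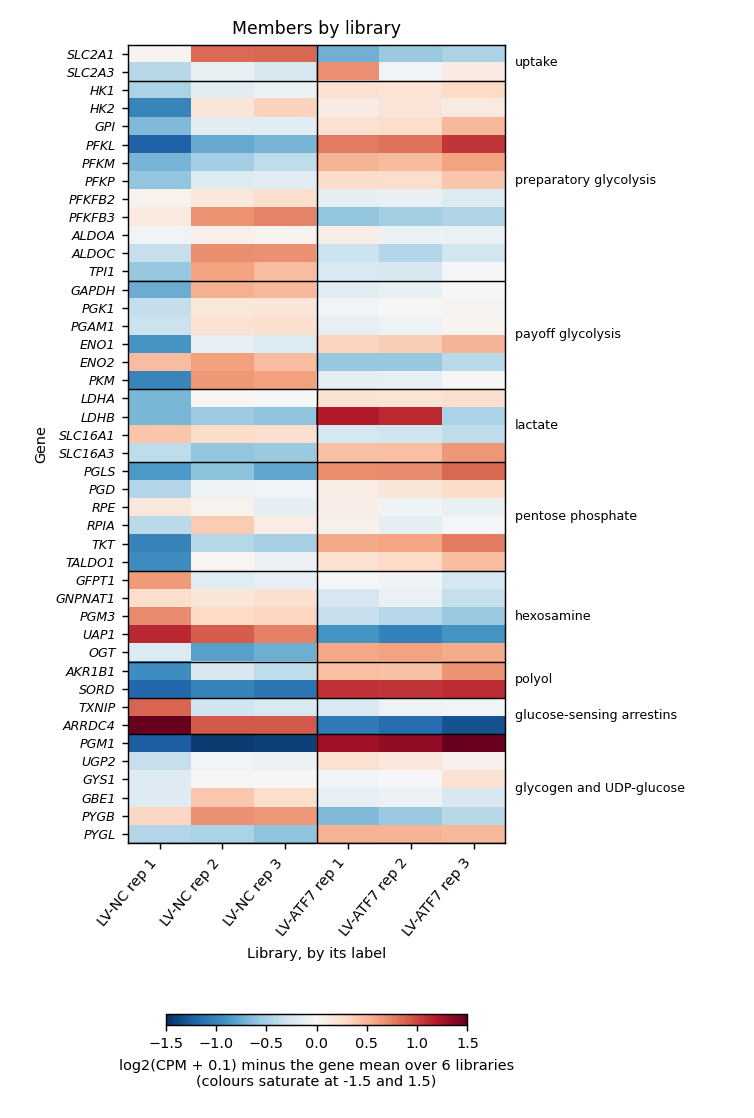
Heat map of the 44 genes (rows, grouped by role) in the 6 libraries (columns, by label). Color gives log2(CPM + 0.1) minus the mean of that gene over the 6 libraries, with blue below and red above that mean. *PGM1*, *SORD*, *UAP1* and *ARRDC4* change color at the border between the labels, and the LV-NC replicate 1 column differs from its neighbors for *PKM*, *GAPDH*, *HK2* and *TXNIP*.

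The main uptake gene by level was *SLC2A1* (ENSG00000117394, chr1:42925375-42959176, minus strand), which encodes GLUT1, the main glucose transporter of epidermis. Its level was 124, 218 and 219 CPM under the LV-NC label and 72.9, 81.5 and 86.7 CPM under the LV-*ATF7* label. The groups did not overlap, and LV-NC replicate 1 was the lowest of its group. The mean fell from 187 ± 54.8 to 80.4 ± 6.97 CPM (SD, n = 3 per label, as throughout), a 2.33-fold fall on the fitted scale (log2 fold change -1.22, SE 0.213, adjusted p = 0.00126). *SLC2A3*, which encodes the high-affinity transporter GLUT3, was low at 0.964, 1.21 and 1.1 CPM and 2.18, 1.27 and 1.44 CPM. It did not pass the test (log2 fold change 0.57, SE 0.299, adjusted p = 0.122).

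The arrestins *TXNIP* and *ARRDC4* are known to drive GLUT1 off the cell surface, and both are classical glucose-induced genes read by the factors MondoA and ChREBP. *ARRDC4* (ENSG00000140450, chr15:97960698-97973838, plus strand) fell the most of the 43 tested genes. Its levels were 141, 83.3 and 83.9 CPM under the LV-NC label and 21, 19.98 and 17.8 CPM under the LV-*ATF7* label, without overlap. That is a 5.24-fold fall (log2 fold change -2.39, SE 0.22, adjusted p = 4.35e-05), and -2.11 without LV-NC replicate 1. *TXNIP* (ENSG00000265972, chr1:145992435-145996600, minus strand) was at 468, 209 and 218 CPM and 219, 244 and 249 CPM, with LV-NC replicate 1 high and replicates 2 and 3 below the LV-*ATF7* libraries. The difference did not pass the test (log2 fold change -0.33, SE 0.292, adjusted p = 0.34), and it turned to 0.13 (adjusted p = 0.0868) when that library was left out.

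The promoters bear on this pair, since MondoA and ChREBP are known to bind the carbohydrate response element, a pair of CACGNG motifs with 5 bases between them. Promoter windows from RefSeq (GRCh38.p14, 250 bases before to 50 after each start) were searched on both strands and were at hand for 40 of the 44 genes, in 73 windows. These paired letters were in 20 of 35116 windows (0.057%), and the members with them were *TXNIP* and *GFPT1*. Only this exact spelling was searched, with both motifs in the same direction. An inverted or looser form of the element would have been missed. The plain E-box CACGTG was in 7.26% of all windows and in 9.59% of the members' windows, and *ARRDC4* held one without a match to the paired spelling. The sequences are shown with the matched letters in capitals, the 3 genes being the sensors of the set and the entry enzyme of the hexosamine branch.
*TXNIP* (chr1:145996639-145996679, minus strand, match starting 88 bases before the RefSeq start): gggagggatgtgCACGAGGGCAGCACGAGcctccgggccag
*GFPT1* (chr2:69387305-69387345, minus strand, match on the opposite strand starting 106 bases before the start): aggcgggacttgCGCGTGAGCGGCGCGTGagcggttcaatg
*ARRDC4* (chr15:97960481-97960510, plus strand, E-box starting 210 bases before the start): aaacggcctgtgCACGTGcacgccggagcc
The 2 genes that matched the paired spelling, *TXNIP* and *GFPT1*, did not pass the test, and *ARRDC4* did. Whether their changes differ was not tested, and the search cannot show that *ARRDC4* lacks the element. A match of letters is a description of the window and does not show that a factor is bound there.

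Among the 11 genes of preparatory glycolysis, the steps from glucose to triose phosphate with their regulators, 5 rose, 3 fell and 3 did not pass the test. The phosphofructokinase subunits, which form the committed step, rose together. *PFKL*, the liver-type subunit (ENSG00000141959, chr21:44300051-44327376, plus strand), rose the most, from 45.7, 62.5 and 65.3 CPM to 182, 187 and 222 CPM, a 3.4-fold rise without overlap (log2 fold change 1.77, SE 0.155, adjusted p = 3.42e-05). *PFKM*, the muscle-type subunit (ENSG00000152556, chr12:48105139-48146404, plus strand), went from 43.2, 49.5 and 54.1 CPM to 99.9, 97.7 and 107 CPM, a 2.07-fold rise (log2 fold change 1.05, SE 0.109, adjusted p = 7.94e-05). The platelet-type subunit *PFKP* rose by less, from 159 ± 24.6 to 246 ± 14.7 CPM (1.54-fold, log2 fold change 0.63, SE 0.127, adjusted p = 0.00275). Because the subunits rose unequally, their makeup also shifted, as the isoenzyme ratios given further on show.

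Bifunctional enzymes set fructose-2,6-bisphosphate, the strongest allosteric activator of phosphofructokinase, and both among the 44 genes, *PFKFB3* and *PFKFB2*, were lower. *PFKFB3* (ENSG00000170525, chr10:6144934-6254644, plus strand), the isoform with high kinase activity that is common in proliferating cells, was at 301, 432 and 453 CPM under the LV-NC label and at 179, 191 and 198 CPM under the LV-*ATF7* label. No library of 1 group reached the other. The mean fell 2.09-fold, from 395 ± 82.5 to 189 ± 9.43 CPM (log2 fold change -1.06, SE 0.157, adjusted p = 0.000511). *PFKFB2* fell 1.24-fold (log2 fold change -0.31, SE 0.0911, adjusted p = 0.0156). Of the further isoforms, named after their values were seen, *PFKFB4* was also lower (-0.39, adjusted p = 0.0493, called in 9 of 14 alternatives), while *PFKFB1*, with a mean of 14.5 counts per library, was higher (1.80, adjusted p = 0.00592).

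Of the other preparatory genes, hexokinase *HK1* rose 1.39-fold (log2 fold change 0.48, SE 0.115, adjusted p = 0.00626) and the isomerase *GPI* 1.56-fold (log2 fold change 0.65, SE 0.153, adjusted p = 0.00592). *HK2*, the inducible hexokinase, read 17.8, 39.9 and 45 CPM and 38.5, 40.4 and 38.8 CPM. Apart from LV-NC replicate 1 the libraries lay between 38.5 and 45 CPM, and the difference did not pass the test (log2 fold change 0.20, SE 0.294, adjusted p = 0.571). The aldolase *ALDOC* read 28.5, 58.8 and 58.6 CPM and 29.1, 26.7 and 29.97 CPM, so LV-NC replicate 1 lay among the LV-*ATF7* libraries while replicates 2 and 3 lay above them. It was called lower (log2 fold change -0.77, SE 0.256, adjusted p = 0.0278), and at -1.06 (adjusted p = 6.64e-11) without LV-NC replicate 1. It lost the call when any 1 of the other 5 libraries was left out. *ALDOA*, the ubiquitous aldolase, was low at 4.5, 4.88 and 4.8 CPM and 4.97, 4.33 and 4.31 CPM, and 42.3% of its annotated exon bases are shared with another gene on the same strand, so its counts are uncertain. The triose isomerase *TPI1* (-0.42, adjusted p = 0.199) did not pass the test and was lower at -0.72 (adjusted p = 1.01e-09) without LV-NC replicate 1.

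**Figure D2:**
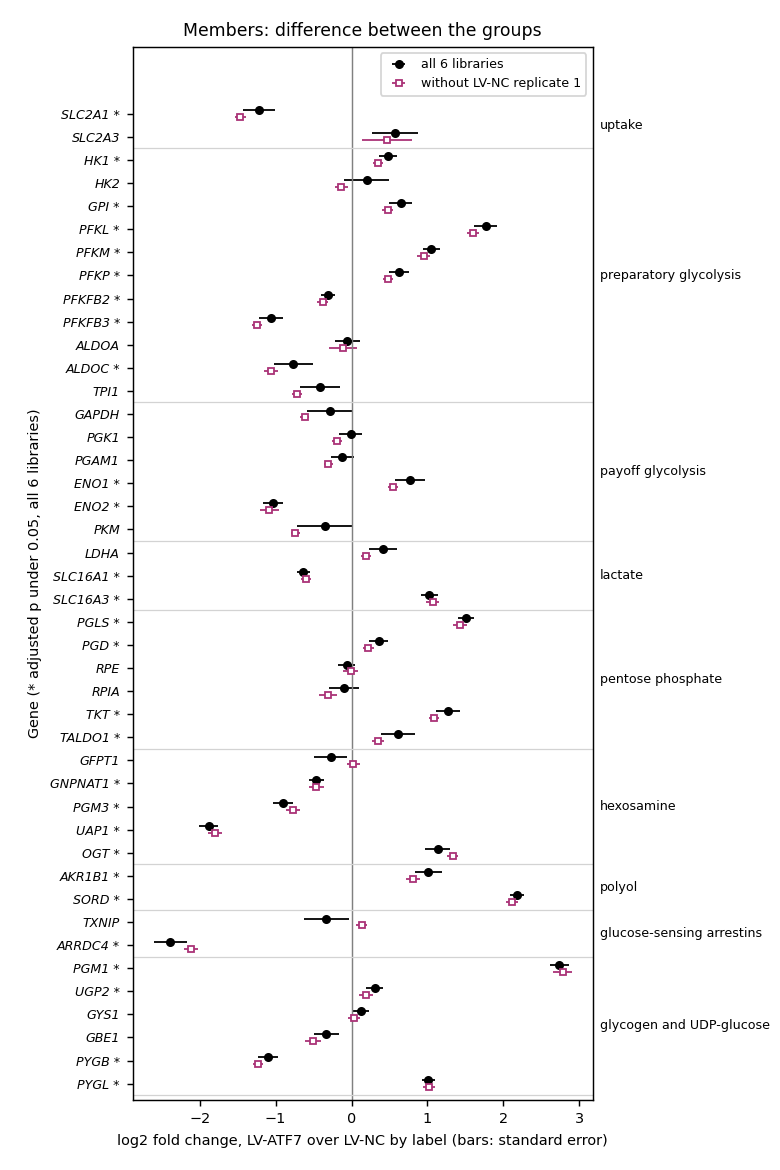
Log2 fold change of each of the 43 tested genes (horizontal axis, LV-ATF7 over LV-NC by label) with its standard error as a bar. Black circles use all 6 libraries, open squares leave out LV-NC replicate 1, and an asterisk marks an adjusted p under 0.05 with all 6. *PGM1* at 2.74 and *ARRDC4* at -2.39 are the extremes, and the payoff genes *GAPDH*, *PGK1*, *PGAM1* and *PKM* move to the left without that library.

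Payoff glycolysis, the steps from triose phosphate to pyruvate, had 1 gene higher, 1 lower and 4 that did not pass the test with all 6 libraries. Both called genes were enolases, which make phosphoenolpyruvate. *ENO1*, the ubiquitous form (ENSG00000074800, chr1:8861000-8879250, minus strand), rose from 625, 1055 and 1004 CPM to 1448, 1488 and 1645 CPM, 1.71-fold (log2 fold change 0.77, SE 0.194, adjusted p = 0.00804). *ENO2*, the neuronal form (ENSG00000111674, chr12:6913745-6923698, plus strand), fell from 17.6, 19.6 and 17.5 CPM to 8.54, 8.56 and 9.57 CPM, 2.05-fold (log2 fold change -1.04, SE 0.13, adjusted p = 0.000213). Neither gene overlapped between the labels.

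The other payoff genes turned on LV-NC replicate 1. *PKM*, the pyruvate kinase gene, read 1375, 4266 and 4166 CPM under the LV-NC label and 2468, 2512 and 2708 CPM under the LV-*ATF7* label. *GAPDH* read 756, 1834 and 1771 CPM and 1134, 1174 and 1274 CPM. In both, LV-NC replicate 1 was below every other library and the LV-*ATF7* libraries lay between it and replicates 2 and 3. With all libraries neither passed (log2 fold change -0.35, adjusted p = 0.422 for *PKM* and -0.28, adjusted p = 0.419 for *GAPDH*). Without that library all 4 genes passed and were lower, with log2 fold changes of -0.74 for *PKM* (adjusted p = 2.61e-11), -0.62 for *GAPDH* (adjusted p = 1.57e-09), -0.30 for *PGAM1* (adjusted p = 0.000153) and -0.19 for *PGK1* (adjusted p = 0.00964). With all 6 libraries *PGAM1* stood at -0.12, adjusted p = 0.508 and *PGK1* at -0.01, adjusted p = 0.948. *GAPDH*, with 62 pseudogenes named for it, and *PGAM1*, with 13, may share reads with near-identical copies. *PKM*, with 5, and *ENO1*, with 4, may do so too. Copies were counted by name only, as the gene symbol followed by P and a number, so copies named otherwise would be missed.

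For lactate, 1 gene rose and 1 fell of the 3 tested, and both were transporters. *SLC16A3*, which encodes MCT4, the exporter of highly glycolytic cells (ENSG00000141526, chr17:82228397-82261129, plus strand), rose from 52.5, 45.4 and 46.4 CPM to 92.8, 93.8 and 108 CPM, 2.04-fold (log2 fold change 1.03, SE 0.106, adjusted p = 7.86e-05). *SLC16A1*, which encodes the higher-affinity transporter MCT1 (ENSG00000155380, chr1:112911847-112957013, minus strand), fell from 225, 204 and 201 CPM to 140.2, 137 and 129 CPM, 1.55-fold (log2 fold change -0.63, SE 0.0888, adjusted p = 0.000385). Both pairs of groups were separate, and neither call needed LV-NC replicate 1.

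*LDHA*, the lactate dehydrogenase subunit that favors lactate, read 343, 565 and 553 CPM and 645, 639.8 and 657 CPM. The groups were separate, but the difference did not pass the test (log2 fold change 0.41, SE 0.182, adjusted p = 0.077) until LV-NC replicate 1 was left out (0.19, adjusted p = 0.00662). *LDHB* had 6, 7 and 6 counts against 26, 27 and 7, so the third LV-*ATF7* library was at the LV-NC level. It failed the filter, and 33.4% of its exon bases are shared with a same-strand gene.

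The *LDHA* promoter was the 1 member promoter with the full cyclic AMP response element TGACGTCA, the site known for factors of the ATF and CREB family. That site stood in 1.37% of the members' windows and 1.85% of all windows, so the members did not hold it more often. The *LDHA* promoter also held 2 E-boxes, and is shown for this reason with the matched letters in capitals.
*LDHA*, response element (chr11:18394501-18394530, plus strand, starting 51 bases before the start): gccccccccgcTGACGTCAgcatagctgtt
*LDHA*, first E-box (chr11:18394366-18394395, plus strand, starting 185 bases before the start): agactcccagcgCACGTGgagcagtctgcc
*LDHA*, next E-box (chr11:18394464-18394493, plus strand, starting 87 bases before the start): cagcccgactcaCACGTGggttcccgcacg
The core ACGTG, which the E-box contains and which hypoxia-inducible factors are known to read, was in 39.7% of the members' windows and 21.4% of all windows. Windows of the same gene were counted separately, some of them overlapping, and the difference was not tested.

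The pentose phosphate genes leaned upward, with 4 of 6 higher and none lower in the test with all libraries. *PGLS*, the lactonase of the oxidative arm (ENSG00000130313, chr19:17511629-17521288, plus strand), rose from 26.6, 31.6 and 28.1 CPM to 78.7, 79 and 88.1 CPM, 2.85-fold (log2 fold change 1.51, SE 0.107, adjusted p = 1.22e-05). *TKT*, the transketolase that links the pathway back to glycolysis (ENSG00000163931, chr3:53224707-53256052, minus strand), rose from 230.4, 342 and 326 CPM to 682, 694 and 790.3 CPM, 2.41-fold (log2 fold change 1.27, SE 0.16, adjusted p = 0.00022). In both genes the lowest LV-*ATF7* library was above the highest LV-NC library. Transaldolase *TALDO1* (log2 fold change 0.61, SE 0.229, adjusted p = 0.0428) and the dehydrogenase *PGD* (log2 fold change 0.36, SE 0.123, adjusted p = 0.0309) were higher by less and were called in 9 and 10 of the 14 alternatives. The epimerase *RPE* (-0.06, adjusted p = 0.644) and the isomerase *RPIA* (-0.10, adjusted p = 0.684), which convert ribulose-5-phosphate, did not pass. *RPIA* was lower at -0.31 (adjusted p = 0.0177) without LV-NC replicate 1.

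In the hexosamine branch 3 of 5 genes fell and 1 rose. The enzymes between the entry step and UDP-GlcNAc fell in a row: the acetyltransferase *GNPNAT1*, the mutase *PGM3* and the pyrophosphorylase *UAP1*, which makes UDP-GlcNAc itself. *UAP1* (ENSG00000117143, chr1:162561506-162599842, plus strand) read 112, 96.1 and 86.4 CPM under the LV-NC label and 27.4, 25.2 and 27.3 CPM under the LV-*ATF7* label, a 3.69-fold fall (log2 fold change -1.88, SE 0.12, adjusted p = 7.94e-06). *PGM3* fell from 66 ± 11.1 to 35.3 ± 2.51 CPM, 1.87-fold (log2 fold change -0.90, SE 0.135, adjusted p = 0.000563), and *GNPNAT1* fell 1.38-fold (log2 fold change -0.46, SE 0.103, adjusted p = 0.00428). All 3 were separate between the labels. *GNPNAT1* shares 35.6% of its exon bases with a gene on the opposite strand, so its reads are uncertain where strand was not used.

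*GFPT1*, the rate-limiting entry enzyme whose promoter is printed above, read 177, 99.9 and 104 CPM and 111, 109 and 94.9 CPM. Apart from the high LV-NC replicate 1 the libraries overlapped, and the difference did not pass (log2 fold change -0.27, SE 0.215, adjusted p = 0.287), being 0.02 without that library. *OGT* (ENSG00000147162, chrX:71533083-71575897, plus strand), the transferase that attaches O-GlcNAc to proteins, rose from 253, 166 and 175 CPM to 435, 444 and 427 CPM, 2.2-fold (log2 fold change 1.14, SE 0.162, adjusted p = 0.000429). Its groups did not overlap, and the log2 rise was 1.33 without LV-NC replicate 1. *OGA*, the hydrolase that removes O-GlcNAc, was named after its values were seen: it read 614, 594 and 607 CPM and 219, 220.3 and 197 CPM and fell (log2 fold change -1.51, SE 0.0921, adjusted p = 6.49e-06). The writer of the mark rose and its eraser fell, while 3 of the 4 genes for making the donor sugar fell.

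Both polyol genes rose. *SORD*, sorbitol dehydrogenase (ENSG00000140263, chr15:45023104-45077185, plus strand), went from 28.2, 31.8 and 30.2 CPM to 136, 134 and 138 CPM, 4.53-fold, with replicates within a few CPM of each other (log2 fold change 2.18, SE 0.0918, adjusted p = 1.59e-06). *AKR1B1*, aldose reductase (ENSG00000085662, chr7:134442350-134459284, minus strand), went from 25.8, 41.9 and 37.8 CPM to 67.3, 66.8 and 78.9 CPM, 2.02-fold (log2 fold change 1.01, SE 0.179, adjusted p = 0.00134). Neither pair of groups overlapped. *AKR1B1*, with 7 pseudogenes named for it, may also share reads with copies. Since every library came from 25 mM glucose, the rise was between the labels and not between glucose levels.

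The glycogen and UDP-glucose genes split, with 3 of 6 higher and 1 lower. *PGM1* (ENSG00000079739, chr1:63593276-63660245, plus strand), which interconverts glucose-1-phosphate and glucose-6-phosphate, had the largest rise of the 43 tested genes. It read 7.01, 6.08 and 6.25 CPM under the LV-NC label and 40.02, 42.1 and 46.9 CPM under the LV-*ATF7* label, 6.67-fold higher and far from overlap (log2 fold change 2.74, SE 0.128, adjusted p = 2.17e-06).

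The glycogen phosphorylases moved in opposite directions. *PYGL*, the liver form (ENSG00000100504, chr14:50857891-50944736, minus strand), rose from 66.7, 64.9 and 59.7 CPM to 130.2, 129 and 127 CPM, 2.02-fold (log2 fold change 1.01, SE 0.0869, adjusted p = 3.02e-05). *PYGB*, the brain form (ENSG00000100994, chr20:25248069-25298014, plus strand), fell from 303, 393 and 386 CPM to 155, 166 and 184 CPM, 2.14-fold (log2 fold change -1.10, SE 0.128, adjusted p = 0.000146). No library of either gene crossed between the groups. *UGP2*, which makes UDP-glucose, was called higher by a small margin (log2 fold change 0.30, SE 0.114, adjusted p = 0.0429), in 4 of 14 alternatives, and not without LV-NC replicate 1 (adjusted p = 0.0553). Glycogen synthase *GYS1* (0.12, adjusted p = 0.344) and the branching enzyme *GBE1* (-0.33, adjusted p = 0.111) did not pass, and *GBE1* was lower without that library (-0.51, adjusted p = 0.00013).

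Summed over their genes, the branches differed in how far the groups separated, given here without a test. The polyol sum was 53.9, 73.8 and 68 CPM under the LV-NC label and 203, 201 and 217 CPM under the LV-*ATF7* label, a log2 difference of 1.68. The pentose phosphate sum was 536, 766 and 731 CPM and 1194, 1218 and 1357 CPM, a log2 difference of 0.91. For both, and for the uptake (-1.15), lactate (0.25) and arrestin sums (-0.56, and -0.21 without LV-NC replicate 1), the groups were separate. Payoff glycolysis summed to 3273, 7899 and 7688 CPM and 5654, 5796 and 6285 CPM, so the groups overlapped. Its log2 difference of 0.02 became -0.40 without LV-NC replicate 1, and that of preparatory glycolysis went from 0.07 to -0.15. The 44 genes together took 0.832%, 1.36% and 1.32% of the counts under the LV-NC label and 1.05%, 1.07% and 1.11% under the LV-*ATF7* label.

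**Figure D3:**
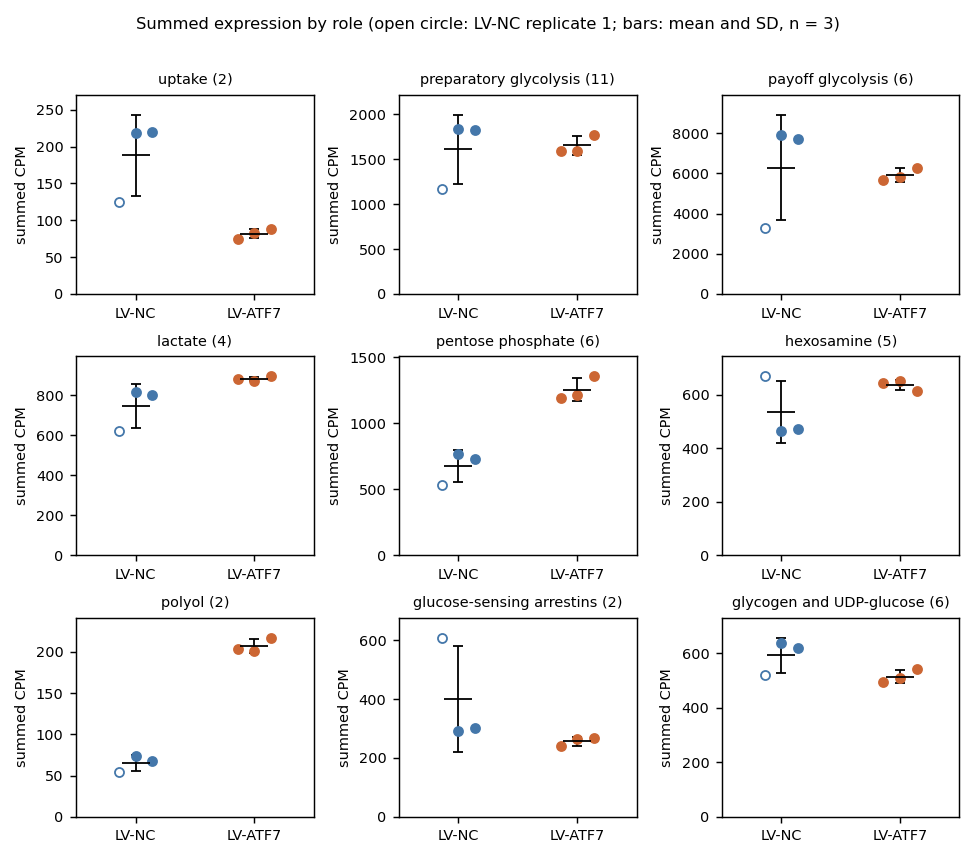
Summed CPM of the genes of each role (vertical axis, starting at 0; number of genes in parentheses) in the 6 libraries, with the mean and SD of 3 per label; the open circle is LV-NC replicate 1. The polyol, pentose phosphate, lactate, uptake and arrestin sums separate by label, and the LV-NC replicate 1 circle lies lowest in payoff glycolysis and highest in the arrestins and hexosamine sums.

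LV-NC replicate 1 was low for some of these genes and high for others. It was below both other LV-NC libraries in 31 of the 44 genes, above both in 12 and between them in 1, where 43.7% and 45.1% of all genes tested were below and above. Relative to the mean of LV-NC replicates 2 and 3 its level was 0.326 for *PKM*, 0.419 for *HK2*, 0.42 for *GAPDH* and 0.467 for *TPI1*, and it was 2.19 for *TXNIP*, 1.74 for *GFPT1* and 1.69 for *ARRDC4*. *PKM*, *HK2*, *GAPDH* and *TPI1* were thus low in the library where the arrestins and *GFPT1* were high. Without it 36 of 44 genes were called, 18 higher and 18 lower, beside 80.1% of all genes (39.9% higher and 40.2% lower), and of the 43 genes tested with all libraries 9 changed their call: *TPI1*, *GAPDH*, *PGK1*, *PGAM1*, *PKM*, *RPIA* and *GBE1* were gained as lower, *LDHA* was gained as higher, and *UGP2* was lost. *LDHB*, which passed the filter without that library, was also called higher (1.55, adjusted p = 0.0109), on the few counts given above. What this library's place among the replicates comes from was not tested.

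Where isoenzymes carry the same step, their ratio within a library does not depend on scaling between libraries. Of 10 pairs compared, 7 did not overlap between the labels. With 3 libraries against 3 an exact permutation test, two-sided, cannot go below 0.10, which these 7 reached (0.143 after Benjamini-Hochberg adjustment over the 10 pairs), so none can pass a threshold of 0.05. The log2 ratio of *PYGL* to *PYGB* went from -2.49 ± 0.27 to -0.38 ± 0.14 (SD), a difference of 2.11. The ratio of *SLC16A3* to *SLC16A1* rose by 1.66, from -2.13 ± 0.03 to -0.47 ± 0.18, the shift from MCT1 toward MCT4 described above. That of *ENO2* to *ENO1* differed by -1.84, that of *SLC2A1* to *SLC2A3* by -1.71 and that of *PFKFB3* to *PFKFB2* by -0.73. Within phosphofructokinase, *PFKP* relative to *PFKL* differed by -1.14 and *PFKM* relative to *PFKL* by -0.72, so the liver-type subunit gained on both others. The pairs that overlapped were *HK2* to *HK1* (-0.18, exact p = 0.6), *ALDOC* to *ALDOA* (-0.63, exact p = 0.2) and *LDHA* to *LDHB* (-0.91, exact p = 0.4).

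**Figure D4:**
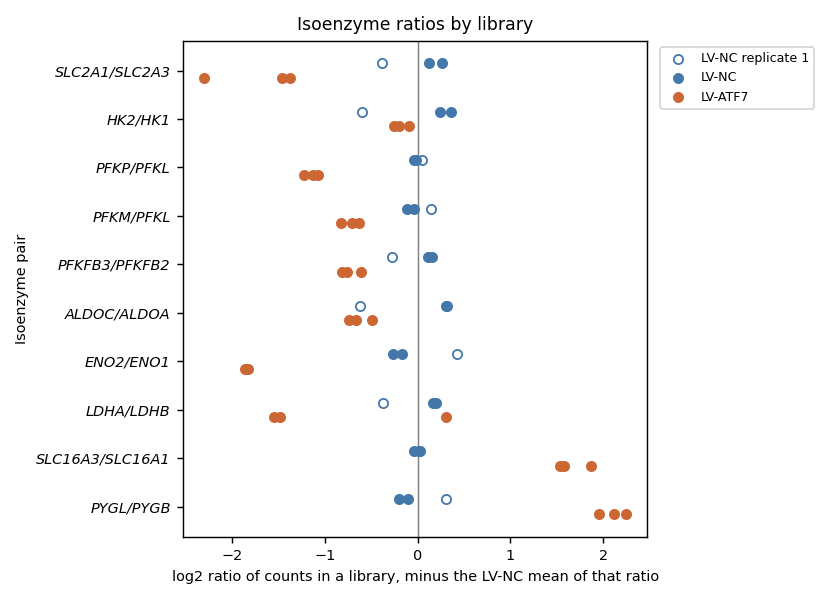
Log2 ratio of counts within a library for 10 isoenzyme pairs (rows), as its distance from the LV-NC mean of that ratio (horizontal axis). Each circle is a library, blue for LV-NC (open for replicate 1) and orange for LV-ATF7. *PYGL/PYGB* and *SLC16A3/SLC16A1* lie to the right in the 3 LV-ATF7 libraries, and *ENO2/ENO1* and *SLC2A1/SLC2A3* to the left.

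Per kilobase of annotated exon, *GAPDH* was the most abundant of the 44 genes under both labels (488 and 400.4 CPM per kb), followed by *PKM* (381 and 299). *TPI1* (177) and *ENO1* (169.6) came next under the LV-NC label and changed places under the LV-*ATF7* label, where *ENO1* was at 289 CPM per kb. This order depends on the gene lengths used and differs by the deposited FPKM, as given at the end. *PGM1* was among the lowest under the LV-NC label at 1.53 CPM per kb and was at 10.2 under the LV-*ATF7* label. *SLC2A3* (0.177 and 0.265) and *LDHB* (0.116 and 0.359) were the lowest under both. On this scale *SLC2A1* was at 39.6 CPM per kb against 0.177 for *SLC2A3* under the LV-NC label, so GLUT1 transcripts made up nearly all of this pair.

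Of 79 further genes of the same pathways that were listed for comparison, 62 had a row and were tested. The test called 43 of them (69.4%, beside 67.6% of all genes), 22 higher and 21 lower, and 49 without LV-NC replicate 1. Among those averaging at least 50 counts and without overlap, the largest falls were in *PYGM*, the muscle glycogen phosphorylase (-5.13, adjusted p = 3.22e-05), *GPD1*, cytosolic glycerol-3-phosphate dehydrogenase (-3.03, adjusted p = 3.11e-05), *NAGK*, which recycles N-acetylglucosamine (-1.54, adjusted p = 6.38e-06), and *MPC1*, a subunit of the mitochondrial pyruvate carrier (-1.52, adjusted p = 0.000109). *PYGM* read 16.6, 39.5 and 40.9 CPM and 0.614, 0.816 and 1.33 CPM, so of the phosphorylases the liver form rose and the brain and muscle forms fell. Under the same limits the largest rises were in *MYC*, a transcription factor known to bind many glycolytic genes (2.22, adjusted p = 8.27e-06), *MLXIPL*, which encodes ChREBP (2.18, adjusted p = 0.000352), the glucose transporter *SLC2A12* (2.09, adjusted p = 0.000394) and the lactate transporter *SLC16A7* (1.85, adjusted p = 0.000321). *MYC* read 209.6, 153 and 153 CPM under the LV-NC label and 792, 795 and 810.4 CPM under the LV-*ATF7* label. Several of the others were low, with means under LV-NC and LV-*ATF7* of 2.28 and 10.4 CPM for *MLXIPL* and 1.81 and 7.76 CPM for *SLC2A12*. Those of *SLC16A7* were 3.59 and 13.0 CPM, and those of *GPD1* 6.22 and 0.753 CPM. Named after their values were seen, *BSG*, the chaperone that brings MCT1 and MCT4 to the membrane, fell (-0.99, adjusted p = 0.000897), *HIF1A* rose (0.82, adjusted p = 0.000548), and *MLXIP*, which encodes MondoA, did not pass (0.16, adjusted p = 0.164) but was called higher without LV-NC replicate 1 (0.16, adjusted p = 0.0413).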

How the data were processed

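Poly(A) mRNA of 6 HaCaT libraries, 3 labeled LV-NC and 3 labeled LV-*ATF7*, was sequenced on an Illumina instrument. The authors deposited unnormalized read counts for 12499 genes, each with at least 51 counts over the 6 libraries. The deposited FPKM values were used only to compare levels between genes. The build GRCh38 is named in the submitters' processing notes; aligner, counting program, annotation and strandedness are not given in the sources used here. The deposited table also holds the authors' fold changes and p-values, which were not used. All sample columns were matched to a sample.

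The members and gene lists were chosen with earlier results of these data known. Counts were TMM-scaled and tested with edgeR 4.0.16 (glmQLFit, glmQLFTest, R 4.3.3), without covariates, over the 12462 genes that passed filterByExpr (37 failed), with Benjamini-Hochberg adjustment and a threshold of 0.05. SE is the log2 fold change over the square root of F. CPM are TMM-scaled. Isoenzyme ratios used 0.5 added counts and exact permutation tests (scipy 1.17.1, Python 3.11.15). Positions are from GENCODE 29, matched by identifier, and not the authors' coordinates; all 44 members were found. Full values are given for members called with a fold of at least 2 and no overlap, otherwise for the 2 of a role with the smallest adjusted p; of the further pathway genes, the 4 largest rises and 4 largest falls averaging at least 50 counts, without overlap. *TXNIP*, *HK2*, *PKM*, *GAPDH*, *ALDOC*, *ALDOA* and *LDHA* have values per library beside this rule, since LV-NC replicate 1 or their annotation bears on them.

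Replicate numbers were not treated as pairs. Replicates differed by more than sampling noise (chi-square per gene 2.86 to 76.2). On simulated counts for 12448 genes, 79 of 100 genes changed 2-fold and 98 of 99 changed 4-fold were recovered, and 6.35% of calls fell on unchanged genes. Unlike the data, the simulation changed few genes and made no library stand apart, so these rates may not carry over. Alternatives were DESeq2 1.42.0, other scalings and filters, limma 3.58.1 voom with sample quality weights, a replicate block, a fold of at least 1.5, and each library left out.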

Additional observations from a re-analysis of the deposited data

How the results depend on the processing

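Members called lower were 11 with all libraries, 18 with voom quality weights, and 10 to 18 when 1 library was left out, the 18 being without LV-NC replicate 1. Counts of all members called and of those higher stayed within 1.5 times of their values under every setting run (members called: 27 with DESeq2, 26 with library size only, 23 with a fold of at least 1.5). Library size only moved the median of all genes from 0.00 to -0.16, which turned the sums of preparatory (-0.10) and payoff glycolysis (-0.15) and *GYS1* (-0.0415), all 3 still above that shifted median. With quality weights the signs of *HK2* (-0.068), *RPE* (0.0125), *GFPT1* (0.0619) and *TXNIP* (0.13) turned, and with upper quartile scaling that of *PGK1* (0.0054). None of these genes was called with all 6 libraries. When 1 library was left out, the log2 values ran from -0.15 to 0.18 for the preparatory sum, -0.40 to 0.24 for the payoff sum, -0.13 to 0.41 for *HK2*, -0.19 to 0.0381 for *PGK1*, -0.31 to 0.0618 for *RPIA*, -0.46 to 0.0248 for *GFPT1* and -0.58 to 0.13 for *TXNIP*. The causes were not tested.

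With the replicate number as a block, 27 members were called, 16 higher and 11 lower, and 8210 of all genes; *UGP2* lost its call (adjusted p = 0.0694) and *PGK1* turned to 0.0078. The block changed no other member's call. Deviations of same-numbered libraries correlated at 0.0583, -0.0209 and 0.0649. With 3 libraries per label these values cannot show whether same-numbered libraries shared a culture or batch, and the labels do not say. The library name of LV-NC replicate 3 carries another number, so its match to LV-*ATF7* replicate 3 rests on the sample titles. Counts of 6 to 27 limit what can be said of *LDHB*. By the deposited FPKM, whose gene lengths differ from the exon lengths used here, *GAPDH* was again highest under the LV-NC label (115 FPKM) but *PGAM1* under the LV-*ATF7* label (88.0, beside 84.9 for *GAPDH*). Under the LV-NC label *PGAM1* came next (107 FPKM), above *PKM* (93.7), *PYGB* (68.3) and *ENO1* (55.2), with *TPI1* lower still (51.6).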
